A study of Mus musculus with 6 samples.

Results

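The genes described here are 10 transcription factors that promote or restrain the differentiation of regulatory T cells (Tregs) into effector Tregs: Prdm1, Bcl6, Batf, Id2, Ahr, Rora, Zeb2, Myb, Bhlhe40 and Zbtb32. They were picked by symbol for their known roles, and no cutoff on measured values entered the rule, although earlier results of these data were known when the list was made. They are 10 of the 13709 rows of the gene count table. All 10 passed the filter on low counts and were among the 13594 genes tested. The counts came from bulk RNA-Seq of CD4+YFP+CD25+ Tregs sorted from C57BL/6 mice in 2 groups of 3 samples, WT and KO. The methods of the study give an age of 2 weeks. KO mice (Foxp3Cre Zfp335fl/fl) carried Cre recombinase and YFP in the Foxp3 locus, so the floxed Zfp335 gene is deleted in cells that express Foxp3, and these mice develop autoimmune inflammation. WT mice carried Foxp3Cre without the floxed alleles per the methods and were called wild-type littermates in the labels, and the YFP sort implies that both groups carried the Cre and YFP allele. The labels named both lymph nodes and spleen as the tissue and did not say whether a sample was 1 mouse or a pool, so the p-values measure the spread between these samples only.

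Resting Tregs recirculate through lymphoid organs, whereas effector Tregs arise after antigen and cytokine signals, leave for tissues and make suppressive products such as IL-10. Prdm1 (Blimp-1) and Bcl6 repress each other in lymphocytes and set apart effector from follicular programs, with Batf acting with IRF4 as an early AP-1 factor of the effector program. Id2 binds and disables E proteins, Ahr and Rora are a ligand-activated factor and a nuclear receptor found in tissue Tregs, and Zeb2, Bhlhe40, Myb and Zbtb32 accompany late differentiation, cytokine output, effector Treg maturation and the curbing of proliferation, respectively.

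Total counts ranged from 32032631 to 40728419 per sample. Levels are in CPM, which scales each library to a common total with TMM normalization factors, and 3 counts, the least that can be told from 0, correspond to between 0.0747 and 0.0913 CPM. Zfp335 was 94.3 to 103 CPM in WT and 37.0 to 40.2 CPM in KO samples, in accord with the labels. WT replicate 3 stood apart: the ratio of the squared differences between 2 samples' counts to sampling noise was 25.1 and 24.5 against the other WT samples, 9.94 between those, and 5.24 to 6.06 among KO samples. This sample was more than 1.5-fold away from the mean of WT replicates 1 and 2 for 6 of the 10 factors and for 24.0% of all genes tested, and values without it are given where it decides a result. The Treg markers Cd3e, Cd4, Foxp3, Il2ra, Ctla4 and Ikzf2 were detected in every sample, with a summed level of 3927 to 5104 CPM in WT and 3309 to 3405 CPM in KO. Of these 6 markers, Foxp3 and Ikzf2 were called lower in KO. Foxp3, which defines Tregs, averaged 857 ± 292 CPM in the WT samples and 465 ± 6.48 CPM in the KO samples (SD, n = 3; log2 fold change -0.88, and -0.57, no longer called, without WT replicate 3). Ikzf2, which encodes Helios, was 704 ± 55.0 and 326 ± 10.3 CPM (log2 fold change -1.11).

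Of the 10 factors, Zeb2, Id2 and Bhlhe40 rose in KO Tregs, Bcl6 fell, and Batf, Prdm1, Ahr, Rora, Myb and Zbtb32 were not called. Calls required a change of more than 1.5-fold, with p under 0.05 and an adjusted p under 0.1 in edgeR's quasi-likelihood test. These 4 of 10 compare with 24.4% of all genes tested, of which 11.9% were called higher and 12.5% lower. Without the fold cutoff, 5 factors (the same 4 and Batf) and 47.0% of all genes had an adjusted p under 0.1. When WT replicate 3 was left out, Prdm1, Ahr and Rora also had an adjusted p under 0.1, with changes under 1.5-fold. In that fit 7759 of 13663 genes had an unadjusted edgeR p under 0.05, against 6468 of 13594 with all samples. The levels of 6 factors (the 4 called factors, Batf and Ahr) did not overlap between the groups, which also held for 53.8% of all genes. The median log2 fold change of the 10 factors was 0.30 and that of all genes was -0.04, and the median size of the change was 0.44 against 0.36. The 4 called factors thus changed most, and Prdm1, Ahr, Rora and Myb changed less than the all-gene median size. At 0.36, Zbtb32 was close to that median, and Batf at 0.51 was above it.

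**Figure D1:**
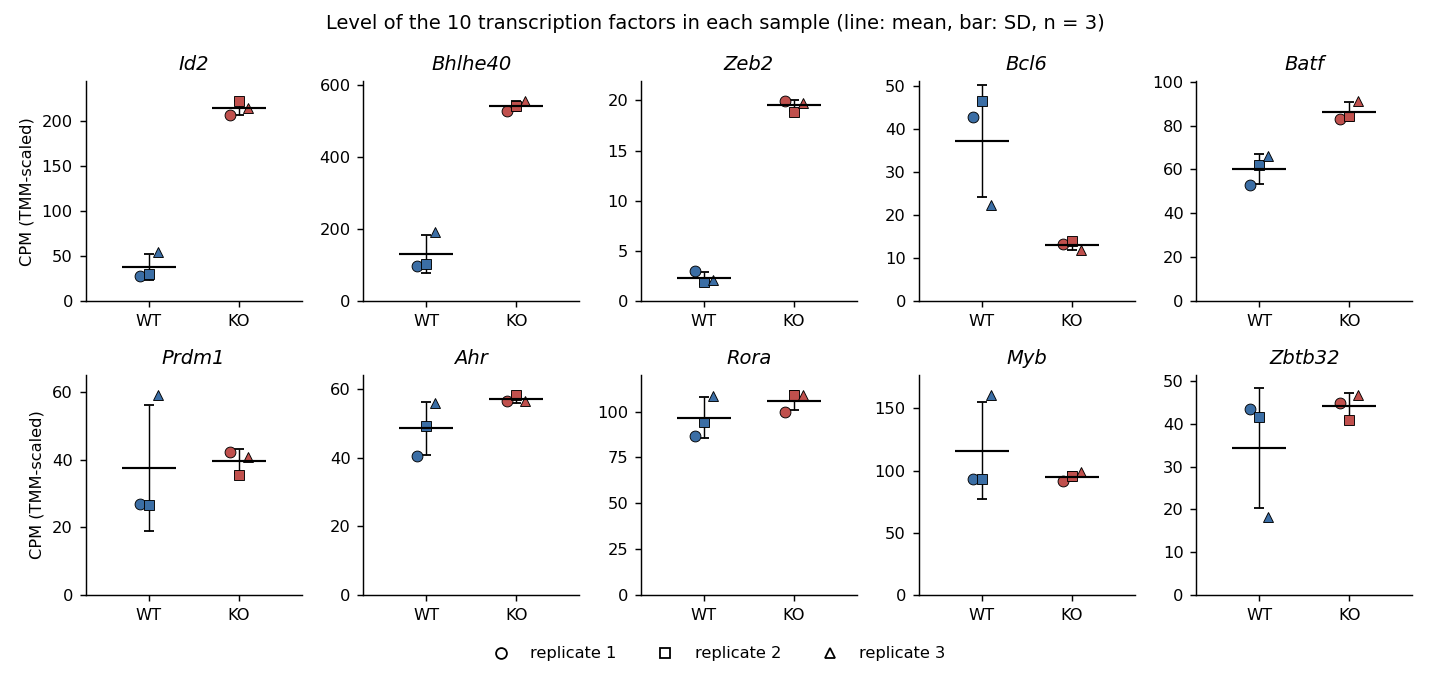
Level of each factor in CPM (vertical axis, from 0) in the 3 WT and 3 KO samples, with the mean as a line and the SD as a bar. Zeb2, Id2 and Bhlhe40 are higher in every KO sample than in any WT sample, Bcl6 is lower, and WT replicate 3 (triangle) lies away from the other WT samples for Prdm1, Bcl6, Myb and Zbtb32 among others.

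Zeb2, a zinc finger transcriptional repressor that promotes late effector differentiation (chr2:44983632-45117395, minus strand, mm10), showed the largest change of the 10. Its level was 3.04, 1.92 and 2.10 CPM in the WT samples, in replicate order here and throughout, and 19.9, 18.8 and 19.7 CPM in the KO samples. All KO samples lay far above all WT samples, and WT replicate 3 was inside the range of the other WT samples. The mean rose from 2.35 ± 0.60 to 19.5 ± 0.57 CPM (SD, n = 3), a log2 fold change of 3.04 (SE 0.19, edgeR adjusted p = 4.2e-05), which ranked 245 by size among all genes tested. The WT level rests on 63 to 112 counts per sample and the KO level on 694 to 757. Per kilobase of exon, Zeb2 was the lowest of the 10 factors in both groups, with 0.118 CPM for WT and 0.977 CPM for KO. The length used joins the exons of all annotated transcripts, 19942 bases for Zeb2. Before this division, the KO mean of Zeb2 (19.5 CPM) was above that of Bcl6 (13.1 CPM). The exons of Zeb2 share 653 bases with the antisense gene Zeb2os, whose reads cannot be told apart where counting did not use strand.

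Zeb2 is also made by myeloid and NK cells, and markers of these cells moved with it. The summed level of 9 myeloid markers was 24.7 to 30.2 CPM in WT and 59.1 to 68.0 CPM in KO, 7 of the 9 were called higher (4 without KO replicate 1 or without KO replicate 3), and S100a8 and S100a9, which are made by neutrophils and monocytes, were at 0 in all WT samples. The summed level of the NK markers Ncr1, Klrb1c and Eomes was 3.59 to 5.83 CPM in WT and 14.9 to 16.2 CPM in KO. Most of this sum was Eomes, with a mean of 2.31 CPM in WT and 11.3 CPM in KO. Klrb1c averaged 1.65 and 3.48 CPM, and both genes can also be expressed by activated T cells. Ncr1 averaged 0.384 and 0.940 CPM and was not called. The part of myeloid and NK cells in the rise of Zeb2 was not tested. In bulk samples more cells of a type and more RNA per cell cannot be told apart. Its relative Zeb1 was not called, with 56.1 ± 7.56 CPM in WT and 65.2 ± 1.62 CPM in KO (SD, n = 3; log2 fold change 0.22, edgeR adjusted p = 0.130).

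Id2, the inhibitor of DNA binding that keeps E proteins off their sites (chr12:25093799-25097140, minus strand), was 28.0, 30.8 and 54.6 CPM in the WT samples and 207, 222 and 215 CPM in the KO samples. The lowest KO sample stood well above WT replicate 3, the highest of the WT samples. The mean rose 5.69-fold, from 37.8 ± 14.6 to 214.8 ± 7.71 CPM (SD, n = 3), with a log2 fold change of 2.51 (SE 0.24, edgeR adjusted p = 0.000252). Without WT replicate 3 the log2 fold change was 2.87.

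Id3, the other inhibitor of E proteins expressed in Tregs, moved the opposite way. It was 81.6, 86.2 and 52.3 CPM in WT and 13.4, 15.5 and 12.8 CPM in KO, a log2 fold change of -2.40. Id2 thus went from less abundant in counts than Id3, or about level with it in WT replicate 3, to more abundant in every KO sample: the log2 ratio of Id2 to Id3 counts was -1.54, -1.49 and 0.06 in WT and 3.95, 3.84 and 4.07 in KO. The difference of 4.94 had a p of 0.1 in the exact two-sided permutation test, which is the smallest p that 3 samples against 3 allow (0.125 after adjustment over 5 such ratios). The E protein genes Tcf3, Tcf4 and Tcf12 were not called.

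Bhlhe40 (Dec1), a basic helix-loop-helix repressor tied to cytokine production in T cells (chr6:108660629-108666925, plus strand), was 98.6, 103 and 192 CPM in WT and 528, 543 and 556 CPM in KO. Each KO sample was above each WT sample, and WT replicate 3 again was the WT sample nearest to KO. The mean rose 4.14-fold, from 131 ± 52.8 to 542 ± 14.2 CPM (SD, n = 3; log2 fold change 2.05, SE 0.25, edgeR adjusted p = 0.000653), and the log2 fold change was 2.43 without WT replicate 3. Bhlhe40 overlaps the antisense gene 0610040F04Rik over 118 exonic bases. Its relative Bhlhe41 was near the detection limit throughout, with a mean of 0.523 CPM in WT and 0.299 CPM in KO, so that nearly all RNA of this pair came from Bhlhe40 in both groups.

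Bcl6, the repressor that directs follicular T cells and opposes Prdm1 (chr16:23965052-23988852, minus strand), was the factor that fell. It was 42.8, 46.6 and 22.3 CPM in WT and 13.3, 13.9 and 11.9 CPM in KO. The groups did not overlap, although WT replicate 3 lay about midway between the other WT samples and KO on the log2 scale. The mean decreased from 37.2 ± 13.1 to 13.1 ± 1.02 CPM (SD, n = 3), to 35.1% of the WT mean (log2 fold change -1.51, SE 0.26, edgeR adjusted p = 0.0029), and the log2 fold change was -1.78 without WT replicate 3.

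Prdm1 (Blimp-1), a transcriptional repressor that promotes terminal differentiation and is needed for Il10 in effector Tregs (chr10:44437177-44528501, minus strand), was 27.0, 26.5 and 59.1 CPM in WT and 42.2, 35.5 and 40.9 CPM in KO. The KO samples lay between WT replicates 1 and 2 below and WT replicate 3 above, so the direction depended on that sample. The log2 fold change was 0.08 with a 95% interval of -0.61 to 0.76 (edgeR adjusted p = 0.867). Without WT replicate 3 it was 0.56 (adjusted p = 0.000143), still under 1.5-fold, and it was -0.11 without WT replicate 1 and -0.13 without WT replicate 2.

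Because Prdm1 and Bcl6 repress each other, their counts were also compared within each sample, where library scaling cancels. The log2 ratio of Prdm1 to Bcl6 was -0.66, -0.81 and 1.41 in WT and 1.66, 1.35 and 1.78 in KO. Bcl6 thus exceeded Prdm1 in WT replicates 1 and 2, and Prdm1 exceeded Bcl6 in the other 4 samples. WT replicate 3 lay within the KO range, so the groups overlapped, and the difference of 1.62 had p = 0.2 in the exact two-sided permutation test. The difference was 2.34 without WT replicate 3 and 1.22 without WT replicate 2.

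**Figure D2:**
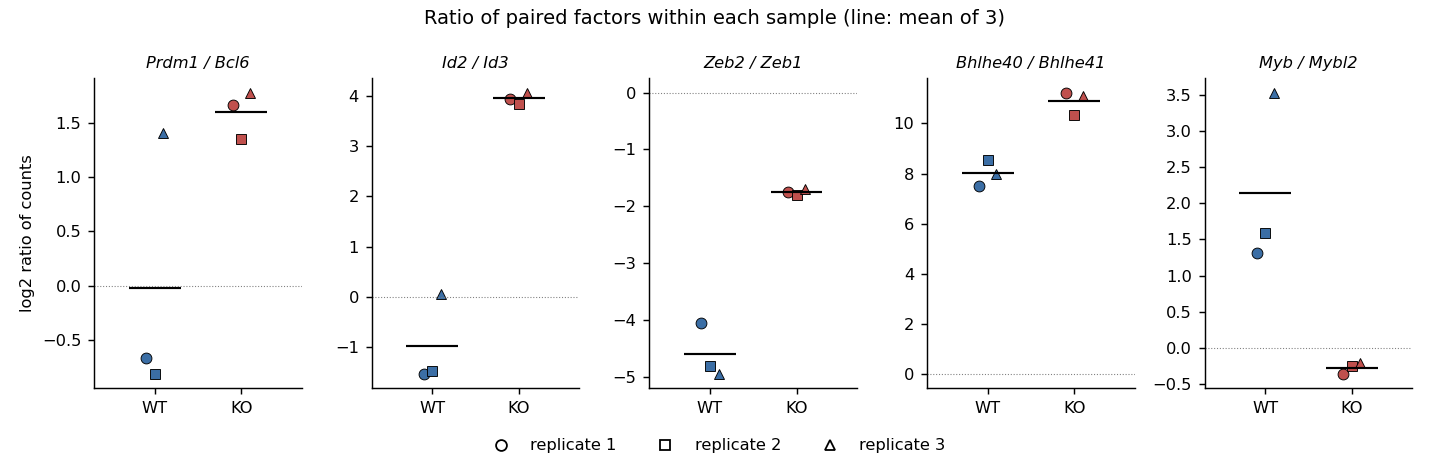
Log2 ratio of the counts of paired factors within each sample (vertical axes, scaled separately), for 3 WT and 3 KO samples with the mean as a line. The groups are apart for Id2 to Id3, Zeb2 to Zeb1, Bhlhe40 to Bhlhe41 and Myb to Mybl2, whereas for Prdm1 to Bcl6 WT replicate 3 lies at 1.41 inside the KO range of 1.35 to 1.78.

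The stretches of 250 bases before the RefSeq starts of Bcl6 and Prdm1 are shown because these factors oppose each other and the letters bound by other members of the group occur in them (GRCm38.p6, minus strand, written 5′ to 3′). Bcl6 is chr16:23988853-23989102, directly upstream of the gene, and Prdm1 is chr10:44458749-44458998, which lies in the span of the longest Prdm1 transcript but in no exon. Capitals mark the matched letters, where N stands for any base. In Bcl6 these are TTCNNNGAA, read by Bcl6 itself and also by STAT factors, and CACGTG, the E-box read by Bhlhe40. In Prdm1 they are CAGGTG, an E-box read by Zeb2 and also by E proteins, and TGANTCA. The latter is a loose pattern for AP-1 factors such as Batf, and its middle base is A in this match.
Bcl6: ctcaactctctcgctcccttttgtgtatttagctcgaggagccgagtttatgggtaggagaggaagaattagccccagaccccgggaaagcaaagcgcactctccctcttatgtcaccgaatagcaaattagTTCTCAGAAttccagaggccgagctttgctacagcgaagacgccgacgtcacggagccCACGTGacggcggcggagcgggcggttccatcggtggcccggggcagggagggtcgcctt
Prdm1: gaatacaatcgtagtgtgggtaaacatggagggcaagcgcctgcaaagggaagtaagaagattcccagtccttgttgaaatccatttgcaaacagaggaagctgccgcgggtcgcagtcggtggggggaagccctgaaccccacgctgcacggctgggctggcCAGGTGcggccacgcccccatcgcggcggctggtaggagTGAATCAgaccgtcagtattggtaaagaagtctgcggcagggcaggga
Among all 32851 promoters of the RefSeq table, searched on both strands over the same length, 7.02% held TTCNNNGAA, 6.02% held CACGTG, 17.2% held CAGGTG and 6.75% held TGANTCA. The table held 8 of the 10 factors, and none of the 8 windows held TAGGTCA (Rora), TNGCGTG (Ahr) or AGNGAAAG (Prdm1), which occurred in 2.23%, 4.10% and 7.30% of all promoters. CAGCTG, read by the E proteins that Id2 binds, occurred in 13.0% of promoters and in the windows of Id2 and Zbtb32, and CAACNG or TAACNG, read by Myb, in 43.1% of promoters and in the windows of Zeb2 and Zbtb32. These matches describe the letters only.

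Batf, the AP-1 factor that opens effector genes together with IRF4 (chr12:85686669-85709087, plus strand), was 52.9, 62.0 and 66.1 CPM in WT and 83.1, 84.3 and 91.1 CPM in KO. Every KO sample was above every WT sample, but the difference was small. The log2 fold change was 0.51 (SE 0.10, 95% interval 0.29 to 0.74, edgeR adjusted p = 0.0044), a 1.43-fold difference in means that stayed under the cutoff of 1.5-fold. Batf was the factor called in addition when the fold cutoff was dropped and an adjusted p under 0.05 was required.

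Ahr, the receptor for aryl hydrocarbons and tryptophan metabolites (chr12:35497974-35535038, minus strand), was 40.5, 49.3 and 55.9 CPM in WT and 56.4, 58.2 and 56.5 CPM in KO. The lowest KO sample was just above the highest WT sample. The log2 fold change was 0.23 (95% interval -0.04 to 0.50, edgeR adjusted p = 0.155). Leaving out WT replicate 3 gave 0.34 (edgeR adjusted p = 0.0033), still under 1.5-fold. Of the known Ahr target genes, Ahrr, Tiparp and Nqo1 were in the table and none was called in KO. Of these, 2 were called higher without WT replicate 3.

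Rora (RORα), a nuclear receptor of tissue Tregs and of the circadian clock (chr9:68653786-69388246, plus strand), was 86.8, 94.4 and 109 CPM in WT and 99.9, 109 and 109 CPM in KO. The groups overlapped, and the log2 fold change was 0.13 (95% interval -0.08 to 0.35, edgeR adjusted p = 0.304). Leaving out WT replicate 3 gave 0.22 (edgeR adjusted p = 0.0134), still under 1.5-fold.

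Myb, a factor of proliferating progenitors that is needed for effector Treg maturation (chr10:21124935-21160984, minus strand), was 93.3, 93.3 and 161 CPM in WT and 91.3, 95.5 and 98.7 CPM in KO. WT replicates 1 and 2 were at the KO level and WT replicate 3 was above every other sample. The log2 fold change was -0.28 (95% interval -0.75 to 0.19, edgeR adjusted p = 0.310) and turned to 0.025 without WT replicate 3.

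Zbtb32, a repressor that restrains T cell proliferation and cytokine output (chr7:30589681-30598909, minus strand), was 43.4, 41.6 and 18.2 CPM in WT and 44.9, 41.0 and 46.8 CPM in KO. The spread came from WT replicate 3, which was the lowest sample, and the other 5 samples lay between 41.0 and 46.8 CPM. The log2 fold change was 0.36 (95% interval -0.30 to 1.03, edgeR adjusted p = 0.359) and 0.05 without WT replicate 3.

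**Figure D3:**
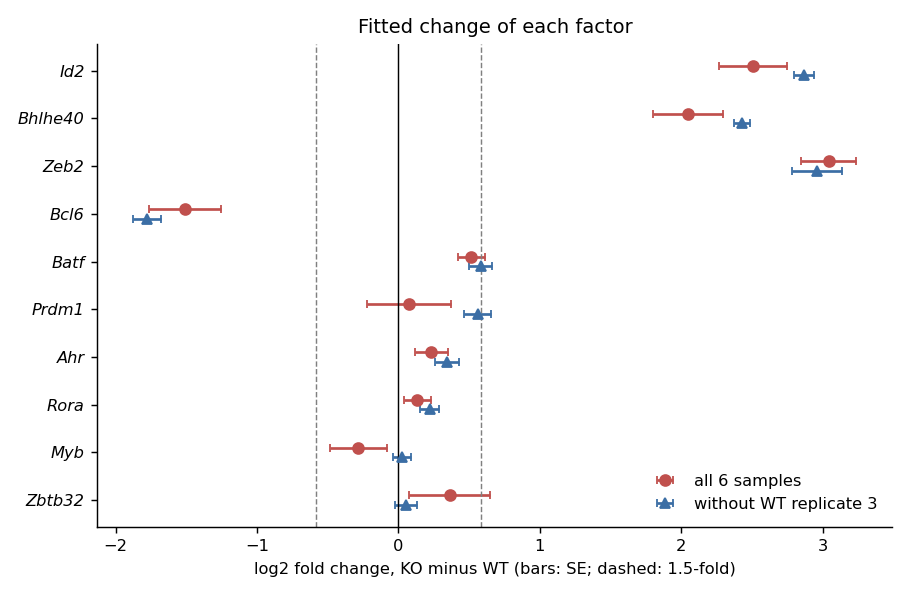
Fitted log2 fold change of each factor (horizontal axis, KO minus WT, bars are SE), with all 6 samples (circles) and without WT replicate 3 (triangles), and the 1.5-fold cutoff as dashed lines. Id2, Bhlhe40, Zeb2 and Bcl6 lie past the cutoff either way, and Myb changes from -0.28 to 0.025.

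The factors also differed in how evenly they were expressed within a group. The coefficient of variation was 11.2% to 49.8% in WT and 1.84% to 8.95% in KO. Prdm1 varied most in both groups, Batf varied least in WT and Ahr least in KO, and WT replicate 3 was the highest or the lowest WT sample for every factor except Zeb2. Its levels of Prdm1, Id2, Bhlhe40 and Myb were above, and those of Bcl6 and Zbtb32 below, the other WT samples by more than 1.5-fold.

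Per kilobase of exon, genes can be compared only roughly, because the exons of all annotated transcripts are joined. On this measure Batf was the most abundant factor in WT at 42.9 ± 4.81 CPM and Zeb2 the least. Bhlhe40 followed with 27.9 ± 11.2 CPM, then Id2 (15.5 ± 6.00), Zbtb32 (14.6 ± 5.97) and Myb (13.0 ± 4.36), and the means of the last 3 differed by less than their SDs (n = 3). Ahr, Rora, Prdm1 and Bcl6 lay between 7.88 and 5.56 CPM, with neighbours closer than their SDs. In KO the order at the top changed to Bhlhe40 (115 ± 3.02), Id2 (88.1 ± 3.16) and Batf (61.3 ± 3.08), with gaps larger than the SDs, while the factors from the fourth to the tenth kept their WT places.

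**Figure D4:**
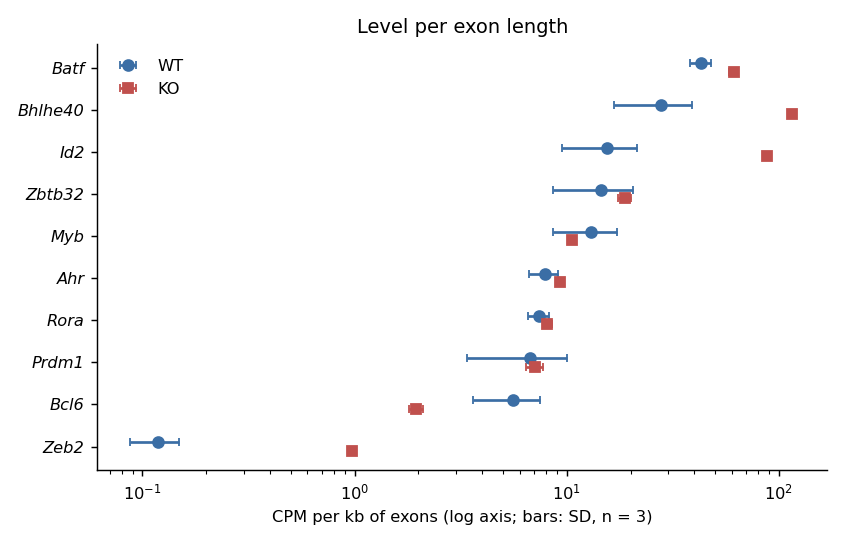
Level of each factor per kilobase of exon (horizontal log axis, CPM per kb, mean with SD, n = 3), for WT (circles) and KO (squares), ordered by the WT level. Bhlhe40 and Id2 move to the top in KO at 115 and 88.1, and Zeb2 is the lowest in both groups at 0.118 and 0.977.

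Relatives of the 10 factors were read from a list of 15 genes, of which 13 were tested. Batf2, Mybl1, Mybl2 and Id3 were called, the first 3 higher and Id3 lower, and the median log2 fold change of the 13 was 0.33. Batf2, an interferon-induced AP-1 factor, was at 0 in all WT samples and at 1.51, 1.32 and 0.879 CPM in KO, at least 13.5-fold higher when set against 3 counts in a WT sample. Mybl2, a factor of the cell division program, was 37.4, 31.1 and 13.9 CPM in WT and 117, 113 and 114 CPM in KO (log2 fold change 2.06), and Mybl1 rose from 2.69 ± 0.78 to 11.4 ± 2.49 CPM (SD, n = 3). Myb itself lay between 91.3 and 98.7 CPM outside WT replicate 3, and the log2 ratio of Myb to Mybl2 was 1.32, 1.58 and 3.53 in WT against -0.36, -0.25 and -0.21 in KO (difference -2.41, exact permutation p = 0.1). Without WT replicate 3, 6 relatives were called higher and 1 lower.

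Partners and corepressors of the factors were mostly not called. Of 22 such genes, Ctbp2 was called higher and Bcor lower, 20 were not called, and the median log2 fold change was -0.02. With an adjusted p under 0.05 and no fold cutoff, 1 was called higher and 5 lower, among 5244 genes called in all. When WT replicate 3 was left out, 2 were called higher and 1 lower. Irf4, the partner of Batf, fell from 206 ± 22.8 to 144 ± 3.55 CPM (SD, n = 3). Its log2 fold change of -0.52 (edgeR adjusted p = 0.0028) was under the fold cutoff. Bcor, a corepressor bound by Bcl6, was 197, 195 and 201 CPM in WT and 122, 118 and 121 CPM in KO (log2 fold change -0.72). Ctbp2, a corepressor bound by Zeb2, went from 0.538 ± 0.10 to 1.33 ± 0.13 CPM (SD, n = 3), a level at which its call was lost when KO replicate 1 was left out.

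Genes of the circadian clock, in which Bhlhe40 is a repressor at E-boxes and Rora an activator of Arntl, were lower or not called when all samples were used. Of 15 clock genes, Dbp, Per3, Tef, Per2 and Arntl fell, none was called higher, and the median log2 fold change was -0.59 against -0.04 for all genes. Without WT replicate 3, the count was 5 lower and 2 higher, so the absence of calls in the other direction rested on that sample. Dbp, an output gene driven from E-boxes, decreased from 39.6, 36.2 and 53.1 CPM to 10.9, 10.2 and 15.0 CPM (log2 fold change -1.84). The values for Tef were 54.3, 49.4 and 63.7 CPM in WT and 27.8, 29.1 and 31.1 CPM in KO. Arntl, which encodes the activator BMAL1, fell from 40.5 ± 1.45 to 25.8 ± 1.74 CPM (SD, n = 3). The hour at which mice were killed was not given, so a difference in time of day cannot be told apart from genotype.

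Products of effector Tregs split in both directions. Of 17 such genes, 6 were called higher and 3 lower, with a median log2 fold change of 0.26. Gzmb, which encodes granzyme B, was 12.1, 12.2 and 36.8 CPM in WT and 437, 446 and 438 CPM in KO, and Havcr2, which encodes the receptor TIM-3, was 3.12, 2.86 and 11.9 CPM in WT and 100.1, 86.6 and 85.1 CPM in KO. Both were many-fold above every WT sample, with log2 fold changes of 4.44 and 3.93, or 5.18 and 4.91 without WT replicate 3. Itgae, the integrin CD103 of tissue Tregs, was 113, 110.3 and 308 CPM in WT and 52.4, 49.6 and 56.7 CPM in KO, and Ccr8, a chemokine receptor of effector Tregs, decreased from 67.2 ± 2.53 to 28.5 ± 1.90 CPM (SD, n = 3). Their log2 fold changes were -1.74 and -1.24, and that of Itgae was -1.08 without WT replicate 3.

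Among 12 genes of resting Tregs, Satb1 rose, Foxp1, Tcf7 and Foxo1 fell, 8 were not called and the median was -0.43. Satb1, a chromatin organizer, went from 293 ± 70.7 to 728 ± 19.7 CPM, Foxp1 from 257 ± 3.89 to 148 ± 6.69 CPM, and Tcf7, which encodes TCF-1, from 523 ± 30.7 to 325 ± 12.0 CPM (SD, n = 3). For follicular Tregs, where Bcl6 acts, 9 genes were tested, of which Sh2d1a and Btla fell and Il21 rose. Sh2d1a, which encodes the adaptor SAP, went from 43.2 ± 5.39 to 25.3 ± 2.12 CPM, Btla, an inhibitory receptor, from 222 ± 18.8 to 139 ± 2.80 CPM, and Il21, a cytokine of follicular helper T cells, from 0.613 ± 0.61 to 7.53 ± 0.58 CPM (SD, n = 3). The log2 fold change of Il21 was 3.62, and 4.84 without WT replicate 3. All 17 cell cycle genes were called higher, with a median of 1.80. Bub1 and Ccna2 led them with log2 fold changes of 2.18 and 2.11, and WT replicate 3 was the lowest sample for both, at 5.35 and 22.3 CPM.

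**Figure D5:**
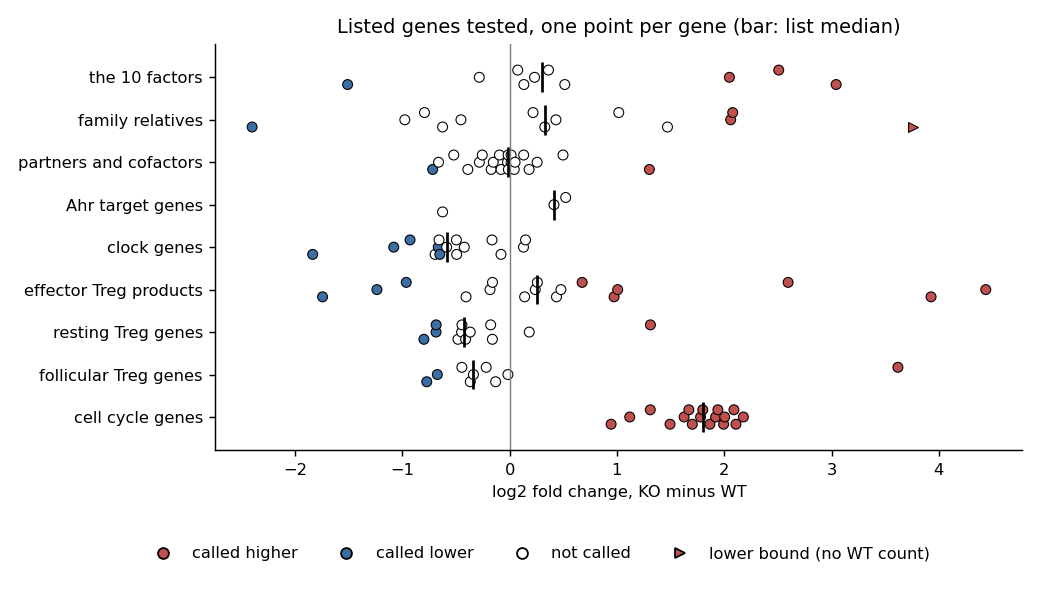
Fitted log2 fold change (horizontal axis, KO minus WT) of each tested gene in the list of the 10 factors and in 8 lists of related genes, filled where called, with the list median as a bar. Batf2 is drawn as a lower bound. All 17 cell cycle genes lie to the right of 0, and no clock gene is called higher with all samples (2 are without WT replicate 3).

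Markers of other cells, which also express some of the factors, were summed for each class. The sums were higher in every KO sample than in any WT sample for myeloid, dendritic and NK cells. They overlapped between the groups for B cells, plasma cells and CD8 T cells. Of 7 B cell markers, Cd22 was called higher and Cd79b lower, and their sum was 22.1 to 26.1 CPM in WT and 20.7 to 22.3 CPM in KO. Plasma cells express Prdm1, and of their markers Jchain, Mzb1 and Sdc1, Jchain and Mzb1 were called higher, at 1.60 ± 0.56 and 0.933 ± 0.31 CPM in KO (log2 fold change of Jchain 1.97, and 2.85 without WT replicate 3), and the sum was 1.03 to 3.88 CPM in WT and 2.71 to 3.91 CPM in KO. Of 5 dendritic cell markers, only Itgax was called, higher at 7.02 ± 1.63 CPM in KO (SD, n = 3), and the sum was 2.41 to 4.24 CPM in WT and 8.92 to 11.6 CPM in KO. S100a9 and S100a8 reached 2.18 and 2.10 CPM in KO, at least 23.9-fold and 23.0-fold above 3 counts in a WT sample. Eomes and Klrb1c, which activated T cells can also express, were the NK markers called higher, and of the CD8 T cell markers Cd8a was called higher, with a sum of 9.32 to 13.2 CPM in WT and 12.0 to 12.7 CPM in KO. The plasma cell and CD8 calls rest on low counts, at most 79 for Jchain, 52 for Mzb1 and 150 for Cd8a in a KO sample. The number of B cell calls stayed at 2 whichever sample was left out. Leaving out KO replicate 1 or KO replicate 3 removed both plasma cell calls and the CD8 call, and leaving out WT replicate 2 removed the CD8 call and 1 plasma cell call. The plasma cell calls also fell to 1 without WT replicate 3 or KO replicate 2, the NK calls fell to 1 without WT replicate 1, WT replicate 2, KO replicate 2 or KO replicate 3, and the dendritic cell calls rose to 2 without WT replicate 1. Their part in the levels of the 10 factors was not tested.

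For each factor, the gene with the most similar profile was found by the root mean square difference of log2 CPM, each centred on its own mean over the 6 samples, among 9881 genes that averaged 5 CPM or more. These were Gbp2 for Id2 (0.094), Gjb2 for Bhlhe40 (0.086), Rap1gap2 for Zeb2 (0.154) and Kifc3 for Bcl6 (0.086). Among the factors that were not called, they were Lin7c for Batf (0.034), Phf11c for Prdm1 (0.030), Tmf1 for Ahr (0.025), Rab5c for Rora (0.029), Hsh2d for Myb (0.040) and 9030025P20Rik for Zbtb32 (0.071). The 6 samples share genotype and the position of WT replicate 3, so this likeness is a description.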

How the data were processed

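Bulk RNA-Seq had been done on sorted Tregs, with 3 WT and 3 KO samples grouped by the genotype in the labels. The study's methods name SOAPnuke for read filtering, HISAT2 for alignment to mm10 and StringTie for quantification. The authors deposited whole-number counts per gene, without normalization, which start at a sum of 60 per gene. How whole numbers were made, the use of strand and the annotation are not given in the sources used here. Keeping 1 alignment per read can misplace reads of near-identical genes, and overlapping genes may share reads. Besides Zeb2 and Bhlhe40, exons of Myb (559 bases), Ahr (127), Rora (82) and Bcl6 (21, with the protein-coding Gm37419) overlap genes on the opposite strand.

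Counts were tested with edgeR 4.0.16 in R 4.3.3 over all 13594 genes kept by filterByExpr (minimum count 10), with TMM scaling and the two-sided quasi-likelihood F-test (glmQLFit, glmQLFTest) of KO against WT without covariates. Adjusted p-values are Benjamini-Hochberg values over the whole set of tested genes. The cutoffs were those of the study: fold change over 1.5, p under 0.05 and adjusted p under 0.1. The SE was the size of the log2 fold change divided by the square root of F, and intervals are at 95%. DESeq2 1.42.0, the authors' tool, was an alternative, as were other scalings, filters, cutoffs, a replicate block and leaving out each sample. The steps were checked on simulated counts. Ratios of 2 genes' counts were compared by exact two-sided permutation tests. A sixth planned ratio, Batf to Batf3, was not computed because Batf3 had no count in WT replicate 1.

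The 10 factors, though chosen by symbol alone, and the gene lists were chosen with earlier results of these data known. Named genes were the 10 factors, Zfp335, both genes of each ratio, the 2 largest rises and falls called in each list (every called gene for relatives, partners, Ahr targets and clock genes) and the nearest gene by profile. Foxo1, Irf4 and the E protein genes were named after their values were seen. Positions and exon lengths came from GENCODE M21 (GRCm38, which mm10 denotes), and promoter sequences from RefSeq. Same-numbered samples were not paired in the main fit. Their deviations from the group means correlated at 0.038, 0.040 and -0.012, which cannot show whether they shared a litter or a preparation.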

Additional observations from a re-analysis of the deposited data

How the results depend on the processing

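The 4 called factors (Zeb2, Id2, Bhlhe40 and Bcl6) remained called under all 14 alternatives, among them DESeq2, RLE size factors, library totals alone, the other filters and the omission of each sample. Over all genes, the 3318 calls became 5244 with an adjusted p under 0.05 and no fold cutoff, where the factors called rose to 5 with Batf, and 1686 with glmTreat against 1.5-fold. The other settings that keep all samples gave 2988 to 3397, leaving out 1 sample gave 2867 to 3667, and the all-gene median of the log2 fold change stayed between -0.07 and -0.02 under every scaling. With the replicate block, 3190 genes and 4 factors were called, and the labels do not say whether the replicate numbers pair samples by origin.

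Direction changed for 2 factors, neither of them called: the log2 fold change of Prdm1 was -0.11 without WT replicate 1, -0.13 without WT replicate 2 and 0.56 without WT replicate 3 against 0.08 with all samples, and that of Myb ranged from -0.42 without WT replicate 2 to 0.025 without WT replicate 3. The related genes called numbered 61 with all samples and 43 to 71 under the alternatives. Without WT replicate 3, Foxp3 missed the fold cutoff. The plasma cell marker Mzb1 missed the cutoff on unadjusted p in that fit, with an edgeR adjusted p of 0.096. The counts of called markers were small and less stable: the plasma cell count ranged from 0 to 2 and the NK count from 1 to 2. The differences in the ratios kept their sign when 1 sample was left out, ranging from 1.22 to 2.34 for Prdm1 to Bcl6, 4.67 to 5.47 for Id2 to Id3, 2.68 to 3.12 for Zeb2 to Zeb1, 2.61 to 3.14 for Bhlhe40 to Bhlhe41 and -2.83 to -1.72 for Myb to Mybl2. With 3 samples against 3 no ratio could reach p under 0.05, and Bhlhe41 rests on as few as 8 counts in a sample. The causes of these changes were not tested.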
